A study of Mus musculus with 8 samples.

Results

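The stretch of mouse chromosome 17 around Ier3 held 11 sites of phosphorylated STAT3, of 5343 distinct sites with an exact position in the whole series. The sites are all peaks of the 6 deposited peak lists that overlapped chr17:35840000-35990000 (build mm9), a window of 150 kb that contains Ier3 near 35.959 Mb. The window was chosen on the listed peaks themselves, as a place where many of them lie close together. The number and closeness of its sites are therefore given as a description, without a test.

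The lists came from chromatin immunoprecipitation followed by sequencing (ChIP-seq), in which an antibody recovers the DNA bound by a protein. The antibody was directed against STAT3 phosphorylated at tyrosine 705. The cells were mouse embryonic fibroblasts of STAT3-/- genotype that re-expressed STAT3α (iSTAT3α) or STAT3β (iSTAT3β) from an inducible construct, with 1 ChIP list per spliceform and time. All groups had received 1 nM 4-hydroxytamoxifen for at least 48 h to induce the spliceform, had been without serum for 16 h, and were then exposed to 10 ng/mL of recombinant human oncostatin M (OSM) for 0, 30 or 180 min. The groups were STAT3α at 0, 30 and 180 min and STAT3β at 0, 30 and 180 min. Another 2 samples, the input DNA of each line, had no peak list used here. Duplicates were merged before deposit and each spliceform is represented by 1 inducible line in the labels, so no value has an error across cultures, and line and spliceform cannot be told apart.

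Ier3, immediate early response 3 (also IEX-1 or gly96), is a small gene that is switched on rapidly by growth factors, cytokines and stress, and its product takes part in the control of apoptosis. OSM is a cytokine of the interleukin-6 family. Its receptors activate JAK kinases, which phosphorylate STAT3, and STAT3 dimers then enter the nucleus and bind DNA at palindromic motifs with a TTC half-site on one side and a GAA half-site on the other. STAT3α is the full-length protein, and STAT3β has a shorter C terminus without the transactivation domain.

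The order of genes gives the setting of the window. In the RefSeq gene table of GRCm38.p6, which is not the build of the lists and was used for names and order alone, the protein-coding genes before Ier3 are Vars2 (a mitochondrial valyl-tRNA synthetase), Gtf2h4 (a subunit of the general transcription factor TFIIH) and Ddr1 (a collagen receptor with tyrosine kinase activity). Those after Ier3 are Flot1 (flotillin-1, of membrane microdomains), Tubb5 (a β-tubulin) and Mdc1 (a mediator of the DNA damage checkpoint). Between Ddr1 and Ier3 that table has no protein-coding gene, but it has the long non-coding RNAs Gm4577, 4833427F10Rik and Gm32409 and the small nuclear RNA LOC115488883. Whether a single site lies in a gene, an exon or between genes on mm9 was not analysed here, because no annotation of mm9 was used. For the same reason the label "intergenic" for the sites below Ier3 was not checked.

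The DNA before the start of Ier3 is shown because the gene is the reference point for all distances below. The sequence holds the 250 bases before the RefSeq start of Ier3 on the plus strand of chromosome 17 in GRCm38.p6, written 5′ to 3′, with the single TATAA match in capitals.
Ier3 promoter: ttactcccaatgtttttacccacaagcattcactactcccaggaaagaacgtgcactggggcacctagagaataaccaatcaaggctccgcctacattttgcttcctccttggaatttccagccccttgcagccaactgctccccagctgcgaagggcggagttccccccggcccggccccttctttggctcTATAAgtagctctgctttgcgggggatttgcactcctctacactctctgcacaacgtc
The TATAA match begins 58 bases before the start, and 22.8% of the 32851 promoters of the same table and length have such a match on either strand. The STAT-type letters TTCNNNGAA, and the same half-sites with NNNN between them, were searched on both strands and did not occur in these 250 bases. The shorter form occurs in 7.02% and the longer in 5.85% of all promoters, counted over the same length. The search covers the reference sequence of this short stretch and none of the 11 sites, whose mm9 sequence was not used here.

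Without OSM, neither list had a peak in the window, for STAT3α (0 of 9 listed peaks) or for STAT3β (0 of 12). At 30 min the window held 10 peaks of the STAT3α list and 7 peaks of the STAT3β list. At 180 min it again held none, of 40 STAT3α peaks and 120 STAT3β peaks. The 11 sites were thus listed at 30 min alone, in the lists of either spliceform. The window took up 0.268% of the 3725 STAT3α peaks and 0.180% of the 3891 STAT3β peaks at 30 min. Peak heights and read numbers are not part of the lists, so sequencing depth is unknown, and a site that is missing from a list may still have been bound.

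**Figure D1:**
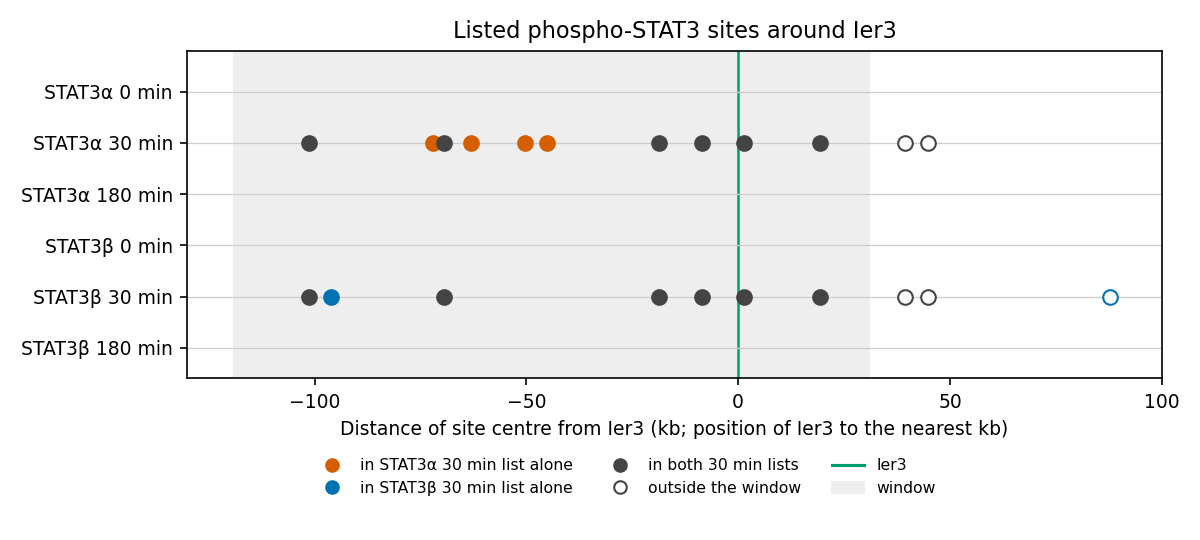
Each circle is a listed site, placed by the distance of its centre from Ier3 in kb (horizontal axis) and by the list that holds it (rows: STAT3α and STAT3β at 0, 30 and 180 min of OSM). All 11 sites inside the shaded window stand in the 30 min rows, the 4 sites within 20 kb of Ier3 are in both of them, and the 4 sites of the STAT3α list alone lie 45.1 to 72.1 kb below the gene. Open circles are sites outside the window.

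The site nearest to Ier3 was in both 30 min lists. It ran from 35960127 to 35960526, and its centre lay 1.3 kb above the position given for the gene. That position is known to the nearest kb only, so this site cannot be placed at the start, in the body, at the end or beyond the end of Ier3.

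A further 3 sites lay within 20 kb of the gene, and each was also listed for both spliceforms at 30 min. The first, from 35950166 to 35950565, was centred 8.6 kb below Ier3. The second, from 35939995 to 35940394, was 18.8 kb below. The third, from 35978108 to 35978507, was 19.3 kb above Ier3 and the only other site of the window on that side. In the order of genes, Flot1 and then Tubb5 follow Ier3 on this side, but which of them the third site is close to on mm9 was not analysed here. The 4 sites within 20 kb of Ier3 were thus all in both lists, as were 42.7% of all 5338 sites at 30 min. The distance of 20 kb was chosen after the positions were seen.

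The remaining 7 sites lay more than 40 kb below Ier3, in the direction of Ddr1. The STAT3α list held 6 of them, the STAT3β list held 3, and 2 were in both. Sites in a single list were common in the whole series too (27.1% for STAT3α alone and 30.2% for STAT3β alone), and a difference between the near and the far sites of the window was not tested. The sites in both lists were the lowest of the window, from 35857387 to 35857786 and 101.4 kb below Ier3, and the site from 35889298 to 35889697, 69.5 kb below.

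The STAT3α list alone held 4 sites, all in the stretch from 72.1 to 45.1 kb below Ier3. The site from 35886720 to 35887119 was 72.1 kb below the gene and only 2.58 kb from the shared site at 35889298. The site from 35895796 to 35896195 was 63.0 kb below Ier3, at a distance of 6.50 kb from the same shared site. The sites from 35908567 to 35908966 and from 35913680 to 35914079 were 50.2 and 45.1 kb below. For these last sites the nearest STAT3β site was 19.27 and 24.38 kb away, so they were the members most removed from any STAT3β site.

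The STAT3β list alone held 1 site, from 35862647 to 35863046 and 96.2 kb below Ier3. Its nearest STAT3α site was the lowest shared site of the window, 5.26 kb away. The median distance to the nearest STAT3β site was 12.9 kb for the 4 STAT3α-alone sites of the window and 78.0 kb for all 1447 STAT3α-alone sites of the series. The window was chosen for closely spaced sites and its widest gap was 26.3 kb, so short distances to the other list follow from that choice and nothing is read from them.

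**Figure D2:**
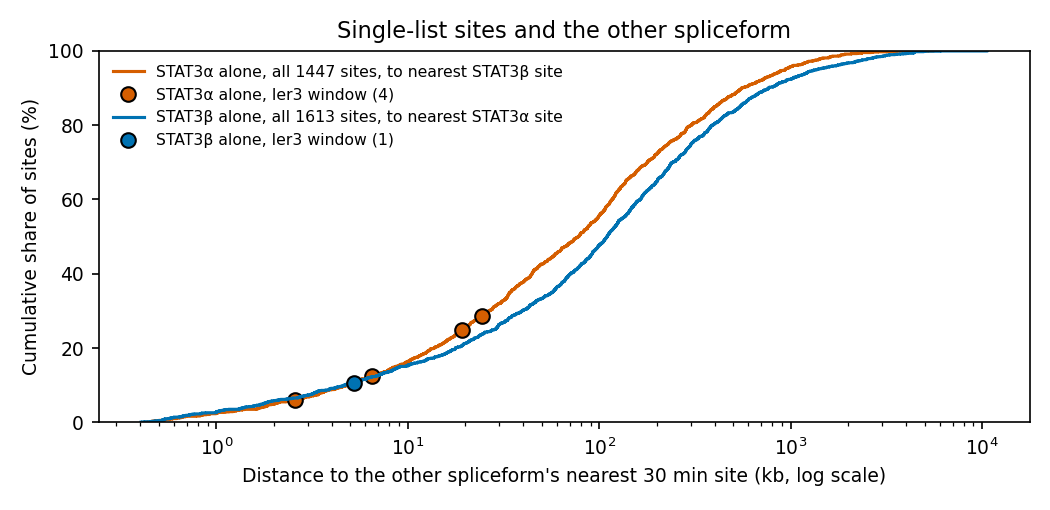
The curves give the cumulative share (vertical axis, %) of all single-list 30 min sites against the distance in kb, on a log axis, to the other spliceform's nearest 30 min site. The marked circles are the window's 4 STAT3α-alone sites, at 2.58 to 24.38 kb, and its STAT3β-alone site, at 5.26 kb, all in the lower part of the curves.

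The shares of the window's sites in each class were then set beside those of all 30 min sites. Of the 11 sites, 6 (54.5%) were in both lists, with a 95% exact binomial interval of 23.4 to 83.3%, against 42.7% of all 5338 sites at 30 min. The STAT3α list alone held 4 of 11 (36.4%, interval 10.9 to 69.2%), against 27.1% of all sites. The STAT3β list alone held 1 of 11 (9.09%, interval 0.23 to 41.3%), against 30.2% of all sites. Each background share lies inside the interval of the window, so at 11 sites the makeup of the window could not be told from that of the series. The intervals cover counting over sites only and read neighbouring sites as independent.

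Outside the window, the 287 other sites of chromosome 17 were shared in 42.2% of cases, STAT3α-alone in 25.8% and STAT3β-alone in 32.1%, near those of the whole series. Read from each list, the shared sites were 6 of the 10 STAT3α sites of the window (60.0%) and 6 of its 7 STAT3β sites (85.7%). The same shares over the whole lists were 61.2% for STAT3α and 58.5% for STAT3β.

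**Figure D3:**
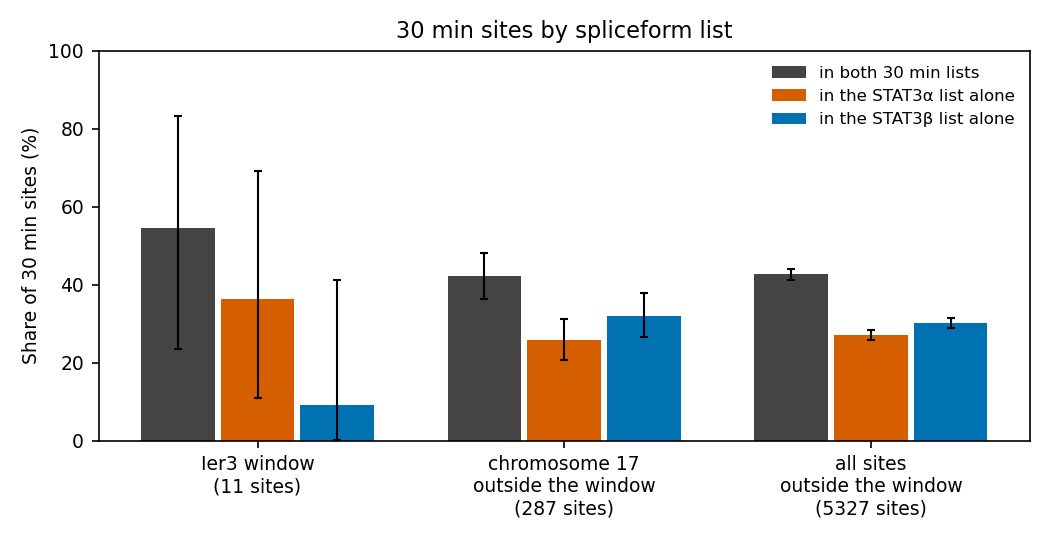
Bars give the share of 30 min sites (vertical axis, %) listed for both spliceforms, for STAT3α alone or for STAT3β alone, among the 11 sites of the Ier3 window, the other 287 sites of chromosome 17 and all 5327 sites outside the window. Error bars are 95% exact binomial intervals. Those of the window are wide and take in the shares outside it, although its STAT3α-alone bar (36.4%) stands above its STAT3β-alone bar (9.09%).

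The absence of all 11 sites from the 180 min lists was read against the same share over the series. Of all 5338 sites at 30 min, 2.40% were listed at 180 min for either spliceform, and of the 2278 sites in both lists 5.27% were. At the first share 11 sites would hold 0.264 late sites, and at the second the 6 shared sites would hold 0.316. The count of 0 of 11 allows a share of up to 27.3%, taken as 3 counts of the total. The count of 0 is near the 0.264 given by the background share, so it is no result particular to Ier3. With so wide a limit, 11 sites cannot show whether the late share of the window was like that of the series. Per list the shares were 0.940% of STAT3α sites and 3.03% of STAT3β sites, and the window held 0 of 10 and 0 of 7. Likewise 0.169% of all 30 min sites were listed at 0 min, against 0 of 11 here.

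Peaks of the other times on chromosome 17 were far from Ier3. The nearest STAT3α peak at 180 min, from 47874911 to 47875310, was 11.88 Mb from the window. The nearest STAT3β peak at 180 min, from 34973581 to 34973980, was 0.87 Mb away. Both belonged to sites in both 30 min lists. The STAT3α list had no peak on chromosome 17 at 0 min, and the single STAT3β peak there, from 4626165 to 4626564, was 31.21 Mb from the window.

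The sites of the window were unevenly spaced. The 10 gaps between neighbouring site centres ran from 2.58 to 26.3 kb with a median of 10.1 kb. Over all chromosomes the median gap between neighbouring 30 min sites was 122 kb. The nearest other site was at a median of 5.26 kb for the 11 members and of 46.2 kb for all 5338 sites. Each of the 11 was 400 bp wide, as were the nearest sites outside the window, so width did not separate them.

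Joined at gaps of up to 10 kb, the window held 6 groups of sites. The largest of these groups had 3 sites, from 35886720 to 35896195, and all 3 belonged to the STAT3α list while 1 was also listed for STAT3β. Groups of at least 3 sites at this gap numbered 88 of 4668 in the series. The site nearest to Ier3 formed a pair with the site 8.6 kb below the gene, and both sites of that pair were in both lists. Joined at gaps of up to 20 kb, the window fell into 3 groups. The lowest held 2 sites. The middle group held 5 sites over 27.4 kb, all 5 of them STAT3α sites and 1 also a STAT3β site. The group around Ier3 held 4 sites over 38.5 kb, all in both lists. Groups of at least 5 sites at this gap numbered 18 of 4292 in the series and those of at least 4 numbered 61. The longest elsewhere had 12 sites. Over all 5338 sites at 30 min, 3725 were in the STAT3α list, 3891 in the STAT3β list and 42.7% in both.

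The window's upper edge ran through the array of sites. The highest site inside lay at 35978108, and the next sites, from 35998347 to 35998746 and from 36003557 to 36003956, were 8.3 and 13.6 kb beyond the edge. Both were in both 30 min lists and in no other list. The next site above, at 36046741, was in the STAT3β list alone and 56.7 kb beyond the edge. Below the window the nearest site, at 35686554 and in both lists, was 153.0 kb from the edge. With gaps of up to 30 kb, a distance chosen after the positions were seen, the 11 sites and the 2 just above the edge formed a single array of 13 sites from 35857387 to 36003956, a span of 146.6 kb. The STAT3α list held 12 of the 13, the STAT3β list held 9, and 8 were in both. In the series the STAT3α list held 3725 of the 5338 sites at 30 min, the STAT3β list 3891, and 2278 (42.7%) were in both. No other array in the series had 13 sites at this gap, among 4023.

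Within that array, successive sites of the same class formed runs. Counting inward from the upper end, the 6 sites from 36003956 down to 35939995 were all in both lists, over 64.0 kb around Ier3. Runs of at least 6 successive shared sites numbered 4 among 1978 runs in the series, and the longest had 7. The 3 sites from 35895796 to 35914079 were successive STAT3α-alone sites over 18.3 kb. Runs of at least 3 such sites numbered 12 among 1324, and the longest had 4. These runs were described after the positions were seen, and their numbers count sites of 1 list per spliceform. Runs were counted inside arrays joined at gaps of up to 30 kb. Long runs therefore need closely spaced sites, for which the window was chosen. How often neighbours share a class over the series was not analysed here, so the runs are a description only.

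Seen from each 30 min site upward over 150 kb, the lowest site of the window had 13 sites, itself included, and the median site had 2. Of all 5338 sites, 46.1% had no other site in that distance above them. In total 10 starting sites had at least 11, of which 3 were members of the window and 7 lay elsewhere, with up to 12 sites. Cut at fixed positions, the genome gave 16935 adjacent stretches of 150 kb with a mean of 0.315 sites. Of these, 2 had 11 sites or more: the stretch that overlaps the window, with 12, and a stretch of chromosome 11, also with 12. The 12 of the first stretch include the site at 35998347, which lies outside the window. By list, 3 stretches held at least 10 STAT3α sites and 6 held at least 7 STAT3β sites. With the stretches moved by 75 kb these numbers were 0 and 5. A boundary then fell inside the window and split its sites, so the 1 moved stretch with 11 sites or more lay elsewhere.

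**Figure D4:**
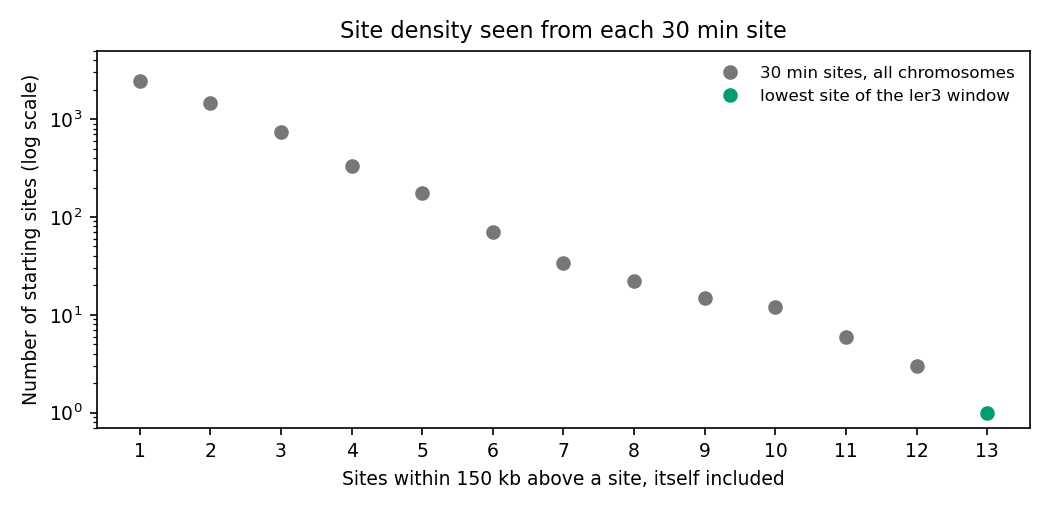
The horizontal axis gives the number of 30 min sites within 150 kb above a starting site, itself included, and the vertical axis (log scale) the number of starting sites with that count. The count falls steadily from 2461 sites with no other site in the 150 kb above them to the single site with 13, which is the lowest site of the Ier3 window.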

How the data were processed

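ChIP-seq peak lists of 6 samples were used, 1 per spliceform and OSM time. The 2 input samples entered no comparison. Per the labels' protocols, formaldehyde (1%, 10 min) fixed the chromatin, which was sheared to 200 to 500 bp. Build mm9 is named in the submitters' processing notes, with the tools HOMER 4.9, MACS2 2.1.1.20160309, bedtools, STAR 2.5.0a and Trim Galore 0.4.2. What each tool did, and the peak threshold, were not given in the sources used here. Deposited by the authors and made from merged reads, the lists give a position and a name per peak, so their values are coordinates only (unit: other) and depth is unknown. The 0 min lists give 6 peaks on other chromosomes rounded to 3 digits, and these were left out.

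Starts were changed to count from 1. Peaks with the same start and end were taken as 1 site. A site counted as held by a list where a peak of that list overlapped it by 1 bp or more. The 6 shared sites of the window had the same start and end in both 30 min lists, as did all 2278 shared sites of the series. Whether the positions of the lists were set separately was not given in the sources used here. Distances run between centres, and from 35959000 for Ier3. No test was run, since there is 1 list per group and the window was chosen from these peaks. The members and lists were chosen with earlier results of these data known. All sites of the window, the nearest sites outside it and 3 protein-coding genes on each side of Ier3 are named, and further RNAs and sites were added after they were seen. The TATAA search was also added. Functions were tested on simulated data. Versions were scipy 1.17.1, numpy 2.4.6, matplotlib 3.10.9 and Python 3.11.15.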

Additional observations from a re-analysis of the deposited data

How the results depend on the processing

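Of 36 alternative values for 14 results, 30 kept within the set limits, which are 1.5 times a count or the binomial interval of a share. Part of the 30 could not have moved. A count of 0 cannot fall in a smaller window, and no site crossed an edge of the window. With the lower edge of the window moved up by 50 kb, the STAT3β list held 4 sites in place of 7 and either 30 min list 7 in place of 11. The STAT3α list held 7 in place of 10, which is within the limit. These counts fell because 4 sites lie in the removed stretch. The number of site groups went from 6 to 10 with gaps of up to 5 kb, to 3 with up to 20 kb and to 1 with up to 30 kb, the last chosen after seeing the data. With the adjacent stretches moved by 75 kb, 1 in place of 2 held 11 sites or more, and 0 in place of 3 held at least 10 STAT3α sites. The moved cut split the sites of the window, and the 1 stretch left lay elsewhere. The rank of the window among fixed stretches thus depends on where the cuts fall. The window made 50 kb longer on each side held 13 sites, and still none at 0 or 180 min. The shared sites were 6 under identical positions and with a peak within 1 kb. The first setting could not have moved the count, because all 2278 shared sites of the series had the same start and end in both lists. No paired analysis was possible because each group has 1 merged list. Without depth or peak heights, absence from a list cannot be told from a weak signal.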
